A study of Mus musculus with 12 samples.

Results

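Elastic fibres and the microfibrils that carry them were followed through 10 genes in mouse myocardium: *Eln*, *Fbn1*, *Fbn2*, *Fbln1*, *Fbln2*, *Fbln5*, *Emilin1*, *Mfap2*, *Mfap4* and *Mfap5*. They are a list of gene names with no cutoff on their values, but chosen with earlier results of these data known. Their counts beside all genes are therefore a description. All 10 were found among the 33641 gene symbols of the table. An elastic fibre has a core of cross-linked elastin (*Eln*), which lets a tissue stretch and recoil, laid on a scaffold of microfibrils built from the fibrillins (*Fbn1*, *Fbn2*). The microfibril-associated proteins (*Mfap2*, *Mfap4*, *Mfap5*), the fibulins (*Fbln1*, *Fbln2*, *Fbln5*) and the elastin microfibril interfacer *Emilin1* bind fibrillin or elastin and help the fibre to form. In the heart these proteins lie around vessels, in the valves and between the muscle cells, and microfibrils also hold stores of latent TGF-beta.

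The tissue came from male wild-type C57BL/6 mice operated on to cause a myocardial infarction (MI) or sham-operated, labelled as about 10 weeks of age for the injections and about 16 weeks in the sample descriptions. From 2 weeks after surgery they received vehicle or prednisone, a synthetic glucocorticoid, at 1 mg/kg intraperitoneally once a week at lights-on for 6 weeks. Tissue was collected 24 hours following the final dose. Each of the 4 groups (sham vehicle, sham prednisone, MI vehicle, MI prednisone) had 3 mice, with 1 library a mouse. All mice thus had an operation and a course of injections. The labels call the tissue myocardium and do not say whether it was scar, border or remote muscle. The labels do not name the vehicle, beyond the DMSO stock in buffer from which prednisone was diluted.

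Values are TPM, which are corrected for transcript length and sum to the same total in every library, so a value is a share of the library and the read depth behind it is unknown. Mitochondrial transcripts took 21.6% to 42.0% of TPM and a cluster of nuclear copies of mitochondrial DNA 9.32% to 20.3%. Between 11690 and 14307 genes reached 1 TPM (most of all in MI vehicle replicate 3). Muscle markers bore out the tissue label, though their level differed between groups. The 7 ventricular myocyte genes summed to 34457 to 40960 TPM in sham, 24716 to 30783 in MI vehicle and 36275 to 39895 in MI prednisone, so the infarcted groups did not overlap. Atrial myocyte genes summed to 855.0 to 2709 TPM in sham, 2813 to 4122 in MI vehicle and 4358 to 6191 in MI prednisone. In MI vehicle that sum was raised by *Nppa* (log2 1.68 over sham), the only one of the 5 called, while *Myl7*, *Myl4* and *Sln* had log2 differences of -0.80, -0.77 and -0.78. In MI prednisone against MI vehicle those 3 genes were called higher (2.04, 1.98 and 2.03). MI vehicle replicate 2 was the lowest library for all 3, with *Myl7* at 408.7, 64.0 and 450.4 TPM in that group. The part of these muscle shifts in the results was not tested. The MI prednisone libraries also differed from the other 9 in the kind of transcript they held. Rows annotated as retained-intron transcripts that start beyond the midpoint of their gene took 2.12% to 3.10% of TPM there, with mitochondrial, nuclear-copy and globin rows set aside, against 1.20% to 1.39% in the others. Rows of this kind are abundant in *Fbln2* and *Emilin1*. The abundant non-coding rows of *Eln* start before the midpoint and are not in that share. All 3 genes are described with their transcripts.

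In sham vehicle hearts *Fbln1* had the highest level of the set (35.0 ± 6.59 TPM, mean ± SD, n = 3), followed by *Fbln2* (24.6 ± 1.81 TPM) and *Mfap5* (19.3 ± 3.42 TPM). *Eln* stood at 9.21 ± 1.23 TPM and *Emilin1* at 9.09 ± 1.86 TPM, levels that did not differ beyond their spread. *Mfap4* (6.01 ± 1.94 TPM), *Fbn1* (5.92 ± 1.39 TPM) and *Fbln5* (4.72 ± 0.296 TPM) came next, also within each other's spread, and *Mfap2* was lower at 2.54 ± 0.772 TPM. *Fbn2*, the fibrillin best known from embryonic tissue, had between 0.0966 and 0.319 TPM in all 12 libraries. It did not reach the 1 TPM in 3 libraries that a gene needed to be tested, so 9 of the 10 genes were tested. The other fibrillin, *Fbn1*, had 4.59 to 14.99 TPM over the same libraries.

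MI was first set against sham among the mice given vehicle, which asks what infarction did to these genes without the drug. All 9 tested genes rose (limma on log2(TPM + 1), Benjamini-Hochberg adjusted p under 0.05), against 15.1% of all 13158 genes tested. Log2 changes are given ± SE, all from the limma fit of the 12 libraries. The median log2 change of the 9 genes was 1.24, where the median over all genes was itself 0.39. The 3 MI vehicle values lay above the 3 sham vehicle values for every one of the 10 genes, *Fbn2* included, as they did for 40.8% of all genes. Bulk tissue cannot tell a change in RNA per cell from a change in the number of cells that make it.

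*Eln*, the elastic core protein, had 9.30, 10.4 and 7.93 TPM in the sham vehicle libraries and 22.3, 38.0 and 35.6 in the MI vehicle libraries. Its mean was 3.47-fold higher after MI, with a log2 change of 1.66 ± 0.23 (limma adjusted p = 0.00513). The lowest infarcted heart was above each sham heart by a wide margin. *Mfap4*, a fibrinogen-like protein that binds elastin and fibrillin, moved the most. It went from 5.14, 8.24 and 4.66 TPM in sham to 33.2, 67.9 and 46.3 TPM in MI, an 8.17-fold difference of the means and a log2 change of 2.81 ± 0.35 (limma adjusted p = 0.00505). *Mfap5*, the glycoprotein also known as MAGP-2, went from 19.6, 22.6 and 15.8 to 46.2, 86.1 and 67.2 TPM (log2 1.70 ± 0.25, limma adjusted p = 0.00618). In all 3 genes MI vehicle replicate 1 was the lowest of its group and replicate 2 the highest.

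The fibulins rose by similar amounts. *Fbln5*, needed to deposit elastin on microfibrils, had 4.70, 5.03 and 4.43 TPM in sham and 9.32, 14.2 and 14.8 in MI (log2 1.24 ± 0.19, limma adjusted p = 0.00673). *Fbln1*, a fibulin of elastic fibres and basement membranes, was the most even: 35.2, 41.5 and 28.3 TPM became 85.8, 81.7 and 84.7 (log2 1.26 ± 0.20, limma adjusted p = 0.00697). *Fbln2* had 23.1, 26.6 and 24.3 TPM in sham and 43.0, 62.5 and 54.5 in MI (log2 1.07 ± 0.19, limma adjusted p = 0.0108). Each fibulin was thus between 2.16-fold and 2.70-fold higher in mean after infarction.

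The remaining genes rose by about as much. *Fbn1*, the main fibrillin of adult microfibrils, had 5.79, 7.37 and 4.59 TPM in sham and 9.30, 14.99 and 11.4 in MI, which was the smallest change of the set (log2 0.89 ± 0.18, limma adjusted p = 0.0156). *Emilin1*, which sits where elastin meets microfibrils, went from 8.91, 11.04 and 7.33 to 14.6, 24.7 and 21.8 TPM (log2 1.07 ± 0.25, limma adjusted p = 0.0233). *Mfap2*, the small microfibril protein MAGP-1, went from 3.10, 2.87 and 1.66 to 5.12, 5.04 and 8.94 TPM (log2 1.04 ± 0.27, limma adjusted p = 0.0320). Its MI mean leaned on replicate 3, without which the change was 0.80 and not called (limma adjusted p = 0.0823).

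Relative to the median shift of all genes, the 9 changes ran from 0.50 (*Fbn1*) to 2.42 (*Mfap4*) on the log2 scale. After median-ratio rescaling of the libraries, 4 were called (*Eln*, *Fbln5*, *Mfap4*, *Mfap5*) and all 9 still pointed up. Of the 13131 genes then tested, 427 were called higher. The part of all calls that was higher went from 94.3% to 50.1%. Without sham vehicle replicate 1 or 3, 5 were called, and when only these 6 libraries were fitted none of the 9 was, the lowest limma adjusted p being 0.0684.

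**Figure D1:**
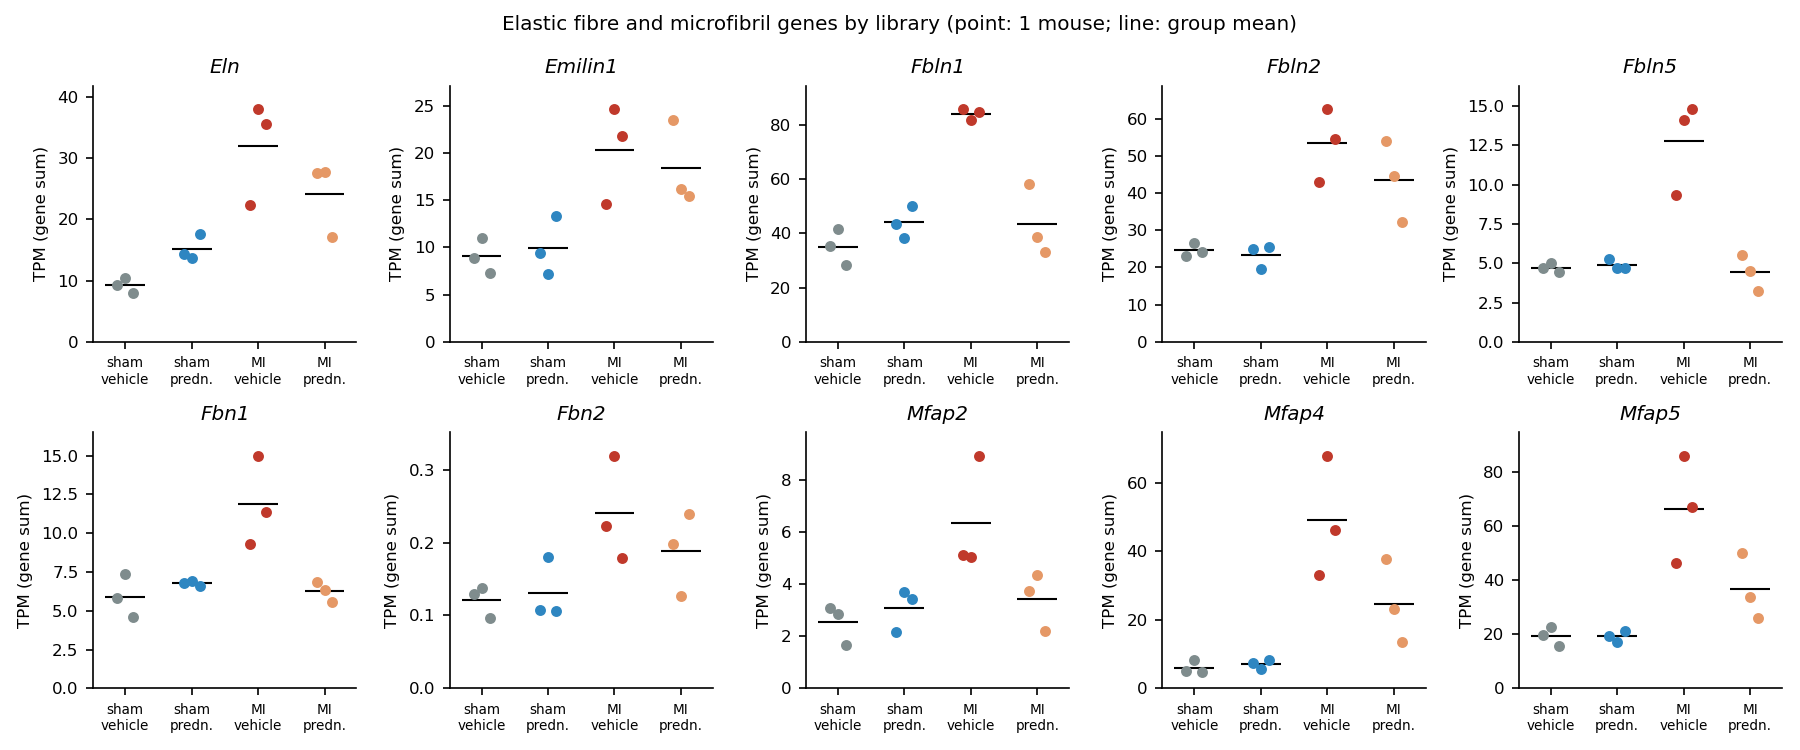
Gene TPM (summed over transcript rows) of the 10 genes in each of the 12 mice, 1 point a mouse and a line at the group mean, each panel on its own axis from 0. The MI vehicle points lie above the sham vehicle points in every panel, and the MI prednisone points of *Fbn1*, *Fbln1* and *Fbln5* reach down among the sham points.

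The same surgical contrast within prednisone-treated mice gave a mixed picture. *Mfap4*, *Fbln2*, *Mfap5* and *Emilin1* rose, 4 of the 9 genes tested, where 2.73% of all genes rose and 14.1% fell. The other 5 were not called. Median-ratio rescaling added *Eln* to the 4, where 1414 of 13131 genes were called higher. The part of all calls that was higher moved from 16.2% to 42.4%. The median log2 change of the 9 genes was 0.61, beside -0.06 for all genes.

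*Mfap4* had 7.31, 5.55 and 8.26 TPM in sham prednisone and 37.8, 23.0 and 13.4 in MI prednisone, a 3.52-fold difference (log2 1.58 ± 0.35, limma adjusted p = 0.0117). *Mfap5* went from 19.4, 17.3 and 21.3 to 50.1, 33.8 and 26.2 TPM (log2 0.84 ± 0.25, limma adjusted p = 0.0429). In both, the infarcted hearts lay above the sham hearts, and MI prednisone replicate 1 was the highest and replicate 3 the lowest. *Fbln2* went from 24.9, 19.7 and 25.6 to 54.1, 44.5 and 32.1 TPM (log2 0.85 ± 0.19, limma adjusted p = 0.0128). *Emilin1* went from 9.38, 7.22 and 13.3 to 23.5, 16.2 and 15.4 TPM (log2 0.83 ± 0.25, limma adjusted p = 0.0438). For *Fbln2* and *Emilin1* these rises sit in transcript rows that are not annotated as coding, as the transcripts show.

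*Eln* had 14.3, 13.6 and 17.7 TPM in sham prednisone and 27.5, 27.7 and 17.1 in MI prednisone. Replicate 3 of the infarcted group fell among the sham values, and the log2 change of 0.61 ± 0.23 was not called (limma adjusted p = 0.0924). *Fbn1*, *Fbln1* and *Fbln5* had log2 differences of -0.10, -0.06 and -0.14, and *Mfap2* of 0.10, all with overlapping groups. The SE of these 4 differences lay between 0.18 and 0.27. The 4 calls were not sturdy: leaving out single mice gave between 0 and 5 of the 9 genes called, with 0 called without sham prednisone replicate 2 or MI prednisone replicate 1, 1 (*Mfap4*) without MI prednisone replicate 2, and 2 (*Mfap4*, *Fbln2*) without sham prednisone replicate 1.

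Prednisone against vehicle within infarcted hearts asks what the drug did after MI. *Fbln5*, *Mfap4*, *Fbln1*, *Mfap5* and *Fbn1* fell, 5 of the 9 genes tested, where 34.9% of all genes fell and the median gene was itself 0.41 lower on the log2 scale. None rose (2.50% of all genes did). The median log2 change of the 9 genes was -0.81.

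*Fbln5* showed the clearest difference. Its 9.32, 14.2 and 14.8 TPM in MI vehicle stood against 5.50, 4.52 and 3.25 in MI prednisone, a 2.88-fold lower mean under the drug (log2 -1.34 ± 0.19, limma adjusted p = 0.00110). The treated infarcted hearts lay on both sides of the sham range of 4.43 to 5.27 TPM. *Fbln5* is the 1 gene of the set that was called in this comparison under every alternative run, 19 of 19, with log2 changes between -1.53 and -0.66.

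*Fbln1* had 85.8, 81.7 and 84.7 TPM in MI vehicle and 58.1, 38.7 and 33.0 in MI prednisone (log2 -0.98 ± 0.20, limma adjusted p = 0.00414). *Fbn1* had 9.30, 14.99 and 11.4 TPM against 6.83, 6.34 and 5.57 (log2 -0.81 ± 0.18, limma adjusted p = 0.00693). In these genes the treated hearts lay below every untreated infarcted heart, as in 42.6% of all genes. *Mfap4* had 33.2, 67.9 and 46.3 TPM against 37.8, 23.0 and 13.4 (log2 -1.02 ± 0.35, limma adjusted p = 0.0416). *Mfap5* had 46.2, 86.1 and 67.2 TPM against 50.1, 33.8 and 26.2 (log2 -0.85 ± 0.25, limma adjusted p = 0.0240). The groups of *Mfap4* and *Mfap5* overlapped, since MI prednisone replicate 1 lay above the lowest MI vehicle value of both genes.

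*Mfap2* had 5.12, 5.04 and 8.94 TPM in MI vehicle and 3.74, 4.34 and 2.20 in MI prednisone, groups that did not overlap but missed the threshold (log2 -0.73 ± 0.27, limma adjusted p = 0.0556). *Eln* (22.3, 38.0 and 35.6 TPM against 27.5, 27.7 and 17.1), *Fbln2* and *Emilin1* were not called, with log2 differences of -0.39, -0.30 and -0.13 and overlapping groups. Measured from the median gene, those 3 genes stood 0.02, 0.11 and 0.27 above it. After median-ratio rescaling the calls shrank to 1, *Fbln5* (log2 -0.93, limma adjusted p = 0.00354), where 1813 of 13131 genes were called lower. The 1 of 9 lies near that share of all genes. The part of all calls that was higher went from 6.69% to 51.0%. The transcript-length correction also left 1, *Fbln5*. Without MI vehicle replicate 2 or 3, or MI prednisone replicate 2 or 3, 3 of the 9 were called.

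*Eln*, *Fbln2* and *Emilin1* are also the genes of the set with abundant transcript rows that are not annotated as protein coding. Of the rows of the 10 genes 20 passed the filter, 15 coding and 5 not. The share of a gene's TPM in non-coding rows separated the MI prednisone libraries from the other 9 in all 3 genes. For *Eln* it was 62.6%, 67.3% and 71.5% in MI prednisone and 19.9% to 37.0% elsewhere. For *Fbln2* it was 79.2%, 79.7% and 66.7% against 19.1% to 41.3%, and for *Emilin1* 65.6%, 56.3% and 58.0% against 5.05% to 36.7%. In the other 6 genes tested, non-coding rows took at most 11.6% in MI prednisone. The 3 genes were picked for their non-coding rows, and in how many of all genes this share parts the same libraries was not counted. Over all genes, late-starting retained-intron rows also took more of the TPM in MI prednisone, with 2.12% to 3.10%.

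In *Fbln2* the coding row Fbln2-201 had 22.7, 27.4 and 29.97 TPM in MI vehicle and 7.73, 5.86 and 6.66 in MI prednisone (log2 -1.84 ± 0.18, limma adjusted p = 0.000102). The retained-intron row Fbln2-206 went the other way, with 12.4, 21.2 and 14.6 TPM against 41.8, 34.3 and 20.98 (log2 0.95 ± 0.27, limma adjusted p = 0.0197). Fbln2-201 fell and Fbln2-206 rose in the same libraries, and the gene sum stayed within its spread. Against sham prednisone, where Fbln2-206 had 5.35, 3.52 and 5.95 TPM, its rise in MI prednisone had a log2 change of 2.46 ± 0.27 (limma adjusted p = 0.000190). It was the largest rise among the 20 rows in that comparison, though within the SE of that of Emilin1-203 (2.38 ± 0.48). In sham vehicle Fbln2-206 had 8.84, 7.74 and 9.46 TPM, each above the sham prednisone values. That difference was not called (log2 -0.73, limma adjusted p = 0.898).

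In *Eln* the only coding row, Eln-201, had 17.9, 27.0 and 26.6 TPM in MI vehicle and 10.3, 9.06 and 4.88 in MI prednisone (log2 -1.48 ± 0.25, limma adjusted p = 0.00165). The treated values overlap those of the sham groups, which ran from 6.03 to 11.6 TPM. Eln-203, annotated as subject to nonsense-mediated decay, had 3.11, 6.73 and 6.65 against 10.7, 10.5 and 7.33 TPM (log2 0.73 ± 0.29, limma adjusted p = 0.0762). It has 861 annotated coding bases, and is counted as non-coding here because its type is not protein coding. The retained-intron row Eln-204 had 0.620, 3.43 and 1.73 against 5.53, 6.83 and 4.47 TPM (log2 1.28 ± 0.46, limma adjusted p = 0.0519). Neither passed in that contrast, although in both rows each treated heart lay above each untreated one. The share of all rows that parted in this way was not counted. Both rose in MI prednisone against sham prednisone (log2 changes 1.46 and 1.69, limma adjusted p = 0.00531 and 0.0219).

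*Emilin1* followed the same layout. Emilin1-201, its coding row, had 11.3, 18.6 and 17.3 TPM in MI vehicle and 8.08, 7.07 and 6.49 in MI prednisone (log2 -0.999 ± 0.19, limma adjusted p = 0.00295). The short retained-intron row Emilin1-203 had 3.31, 5.73 and 3.96 against 14.99, 8.82 and 8.68 TPM (log2 1.13 ± 0.48, limma adjusted p = 0.0893). It rose against sham prednisone (0.601, 0.261 and 4.30 TPM) with a log2 change of 2.38 ± 0.48 (limma adjusted p = 0.00521). Over all non-coding rows of the set, 4 of 5 rose in MI prednisone against sham prednisone, where 13.7% of all non-coding rows tested rose. Over the coding rows, 10 of 15 fell in MI prednisone against MI vehicle, where 32.4% of all coding rows fell.

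**Figure D2:**
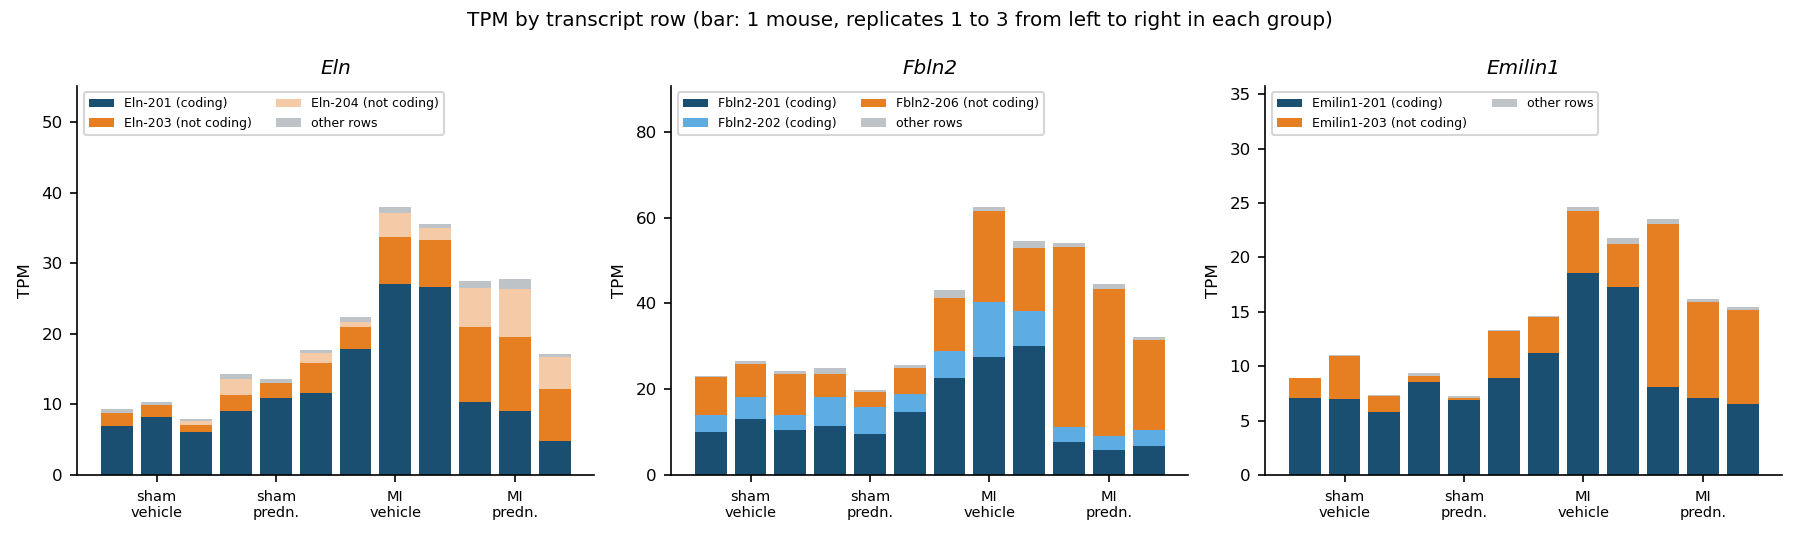
Stacked TPM of the transcript rows of *Eln*, *Fbln2* and *Emilin1*, 1 bar a mouse with replicates 1 to 3 from left to right in each group, on linear axes from 0, coding rows in blue and rows not annotated as coding in orange. In the 3 MI prednisone bars of each gene the orange part exceeds the blue part, and in the other 9 bars it does not.

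Few bases of these rows are absent from the coding transcripts. Fbln2-206 shares 95.2% of its 1612 bases with Fbln2-201 and has 77 bases of its own, intron sequence left in front of an exon. Emilin1-203 shares 98.3% of 601 bases with Emilin1-201 and has 10 of its own, Eln-203 shares 99.8% of 2611 bases with Eln-201 and has 4 of its own, and Eln-204 shares 89.9% of 3076 bases and has 310 of its own. These shares count bases alone and leave out exons that a row lacks. Eln-203 has 24 exons, where Eln-201 has 37. Reads from the shared part can be assigned to either row by the quantification. A row's TPM is an estimate that rests on reads of its own bases or exon junctions and on where along the gene reads fall. Fbln2-206 begins 88.9% of the way along its gene and Emilin1-203 82.8% of the way, while Eln-204 begins at 49.2% and Eln-203 at 0.172%. The stretches that hold a row's own bases are printed here for that reason, from GENCODE M21 (GRCm38), 5′ to 3′ on the gene's strand. Capitals mark the bases found in the non-coding row but not in the coding transcript. In Eln-203 these 4 bases lie within its annotated coding part. Lower case marks the exon bases next to them, which in Emilin1-203 run across an exon junction. The lines are Fbln2-206 at chr6:91265896-91265975 (plus strand, the last 60 of its 77 own bases), Eln-204 at chr5:134724971-134725050 (minus strand, the last 60 of 310), Emilin1-203 with its own bases at chr5:30919921-30919930 (plus strand) and Eln-203 at chr5:134726464-134726487 (minus strand).
Fbln2-206: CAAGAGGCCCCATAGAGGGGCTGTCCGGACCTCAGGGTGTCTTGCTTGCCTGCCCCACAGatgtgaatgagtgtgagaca
Eln-204: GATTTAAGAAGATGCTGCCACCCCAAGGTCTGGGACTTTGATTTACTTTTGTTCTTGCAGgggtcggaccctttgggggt
Emilin1-203: CTTCCAACAGgtcctcaaggggagcaggga
Eln-203: agtcaaagccaaggctccagGTAT
The capitals of Fbln2-206, Eln-204 and Emilin1-203 end in AG, the usual end of an intron, and those of Eln-203 begin with GT, the usual start of one.

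Summing only the rows annotated as coding, a choice made after the data were seen, changed the prednisone results of these 3 genes. In prednisone against vehicle within MI all 9 tested genes then fell, where 46.0% of 11963 genes fell and the median was -0.46. *Fbln2* fell by 1.72 on the log2 scale, *Eln* by 1.48 and *Emilin1* by 0.999 (limma adjusted p = 0.000129, 0.000952 and 0.00161). With median-ratio rescaling on top, 4 of them were still called: *Fbln2* (-1.20), *Eln* (-0.98), *Fbln5* (-0.86) and *Emilin1* (-0.50), with limma adjusted p between 0.000921 and 0.0346. The share of all genes called in that setting was not counted.

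In MI against sham within prednisone, coding sums gave 2 genes that rose and 1 that fell, against 2.12% and 18.4% of all genes. *Mfap4* and *Mfap5* kept their rises (log2 1.56 and 0.85), and *Fbln2* turned from a rise of 0.85 to a fall of 0.75 (limma adjusted p = 0.00609). Its coding sum was 18.7, 15.9 and 19.2 TPM in sham prednisone and 11.2, 9.01 and 10.7 in MI prednisone, which also lies below the 13.99 to 18.1 TPM of sham vehicle. *Eln* and *Emilin1* had log2 differences of -0.39 and -0.15, neither called. All 9 rose by coding sums in MI against sham within vehicle (22.5% of all genes rose), and 8 after median-ratio rescaling, all but *Fbn1*. The share of all genes beside those 8 was not counted. The infarct response of the set in untreated mice was thus seen with either way of summing, and its size under prednisone in *Eln*, *Fbln2* and *Emilin1* was not. The larger share of non-coding rows is found in all 3 libraries of 1 group, so it cannot be told apart from that group, and its part in the results was not tested.

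**Figure D3:**
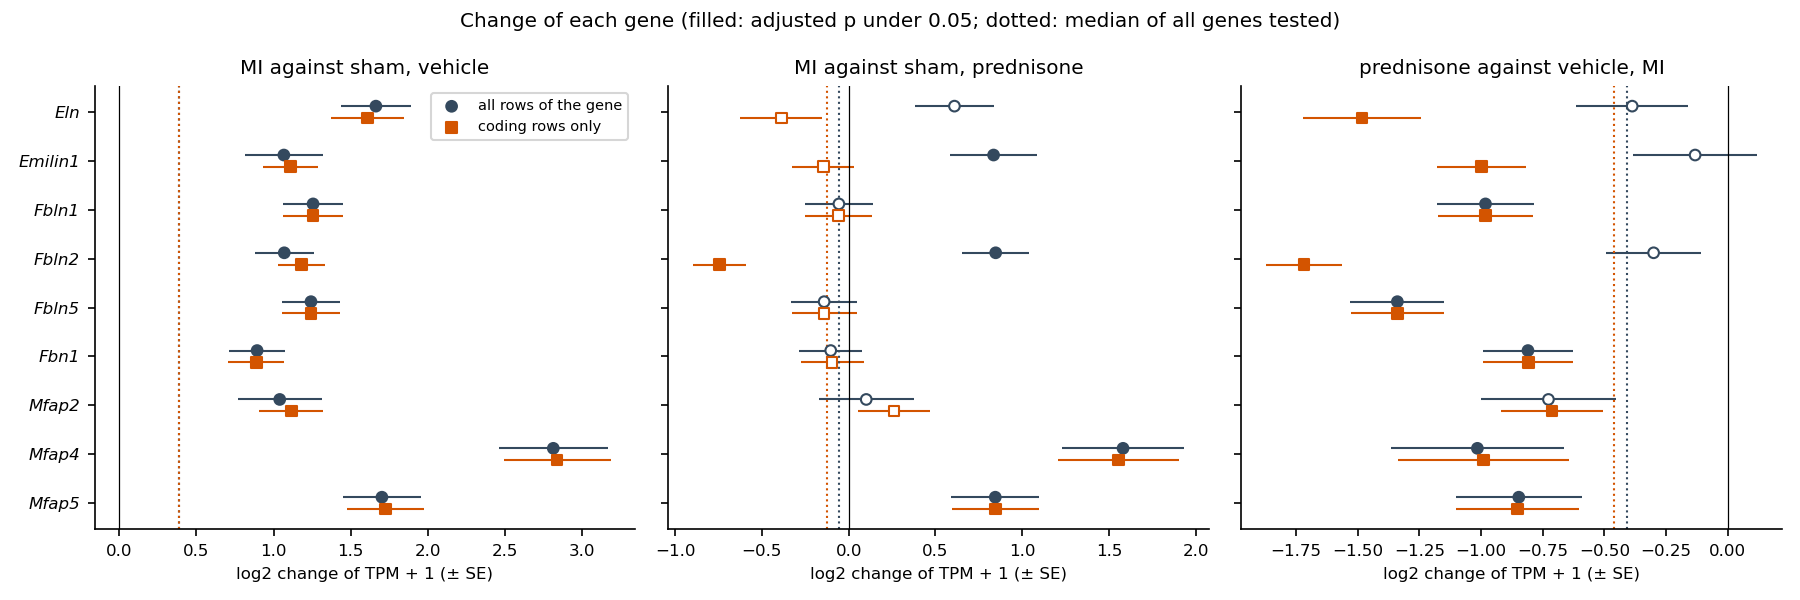
Log2 change of TPM + 1 (± SE) of the 9 tested genes in 3 comparisons, from all transcript rows (circles) and from coding rows only (squares), filled where the limma adjusted p is under 0.05, with dotted lines at the median of all genes tested. Circles and squares lie together for MI against sham in vehicle and part for *Eln*, *Emilin1* and *Fbln2* in the comparisons that hold the MI prednisone group.

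*Fbln1* has abundant coding transcripts with alternative ends, which give the protein forms known as fibulin-1D (Fbln1-201) and fibulin-1C (Fbln1-202). Fbln1-202 carried most of the gene in sham hearts, with 19.4 to 37.1 TPM beside 8.88 to 13.04 TPM for Fbln1-201. Over all rows of the set, 12 of 20 rose in MI vehicle over sham vehicle (2.66% of all rows did), but 1 or 2 did without sham vehicle replicate 1 or 3 or MI vehicle replicate 2 or 3, and 1 after median-ratio rescaling. Both *Fbln1* rows were among the 12 (log2 changes 1.07 for Fbln1-202 and 1.57 for Fbln1-201, limma adjusted p = 0.0197 and 0.0143, in that order). In MI prednisone Fbln1-202 had 27.4, 22.0 and 19.9 TPM against 57.0, 48.1 and 55.8 in MI vehicle, a fall of 1.19 on the log2 scale (limma adjusted p = 0.00105). Fbln1-201 had 30.5, 16.7 and 13.1 against 28.8, 33.6 and 28.6 TPM, a log2 difference of -0.65 that was not called (limma adjusted p = 0.0600). As a share of the gene, Fbln1-201 took 25.5% to 31.4% in sham, 33.6%, 41.2% and 33.8% in MI vehicle and 52.5%, 43.2% and 39.7% in MI prednisone. The share was higher in each infarcted heart than in any sham heart, and the difference in share was not tested. The coding sequence where the ends part is printed here because the 2 rows share 80.6% of the bases of Fbln1-202 and are told apart by what follows this point. Both lines are from GENCODE M21 (GRCm38, plus strand); lower case marks the last shared bases, which begin at chr15:85244287, and capitals the first 90 coding bases of each end, at chr15:85263259-85263348 and chr15:85251445-85251534.
Fbln1-201: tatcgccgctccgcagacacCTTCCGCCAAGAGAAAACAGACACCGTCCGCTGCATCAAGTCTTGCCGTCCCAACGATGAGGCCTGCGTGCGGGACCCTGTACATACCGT
Fbln1-202: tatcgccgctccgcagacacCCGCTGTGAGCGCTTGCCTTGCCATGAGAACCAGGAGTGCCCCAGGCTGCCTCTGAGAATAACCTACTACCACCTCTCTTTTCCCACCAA
The end of Fbln1-201 lies farther along the gene, beyond that of Fbln1-202.

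*Fbln2* also has coding transcripts with and without 1 exon of 141 bases, the only difference between them within the coding part. Fbln2-201, which includes it, fell by 1.84 and Fbln2-202, which skips it, by 1.12 on the log2 scale in MI prednisone against MI vehicle (limma adjusted p = 0.000102 and 0.00599). In MI against sham under vehicle the changes were 1.18, called, and 0.94, not called (limma adjusted p = 0.0130 and 0.0619). The exon is printed in capitals with 20 bases of its neighbours on each side in lower case, from chr6:91259630-91259770 on the plus strand (GRCm38, GENCODE M21), as the stretch that tells the rows apart.
Fbln2-201 exon: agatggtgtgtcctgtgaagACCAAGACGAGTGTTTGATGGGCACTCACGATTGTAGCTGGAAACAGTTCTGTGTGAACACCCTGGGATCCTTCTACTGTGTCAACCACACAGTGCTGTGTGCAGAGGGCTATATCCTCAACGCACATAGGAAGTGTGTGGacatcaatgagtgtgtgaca
The other members are given by their main rows. *Fbln5* is a single row, Fbn1-201 held at least 96.2% of *Fbn1* in every library, and Mfap4-202 at least 81.6% of *Mfap4*. In *Mfap5*, Mfap5-202 and Mfap5-207 together held most of the TPM and rose after MI under vehicle (log2 1.59 and 1.75, limma adjusted p = 0.0254 and 0.0114). Under prednisone Mfap5-207 rose after MI (1.09, limma adjusted p = 0.0112) and Mfap5-202 was not called (0.67). The minor rows Mfap5-201 and Mfap5-206 fell under prednisone after MI (log2 -1.87 and -1.67, limma adjusted p = 0.00829 and 0.0365), and Mfap5-206 was listed at 0 in all 3 of those libraries.

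**Figure D4:**
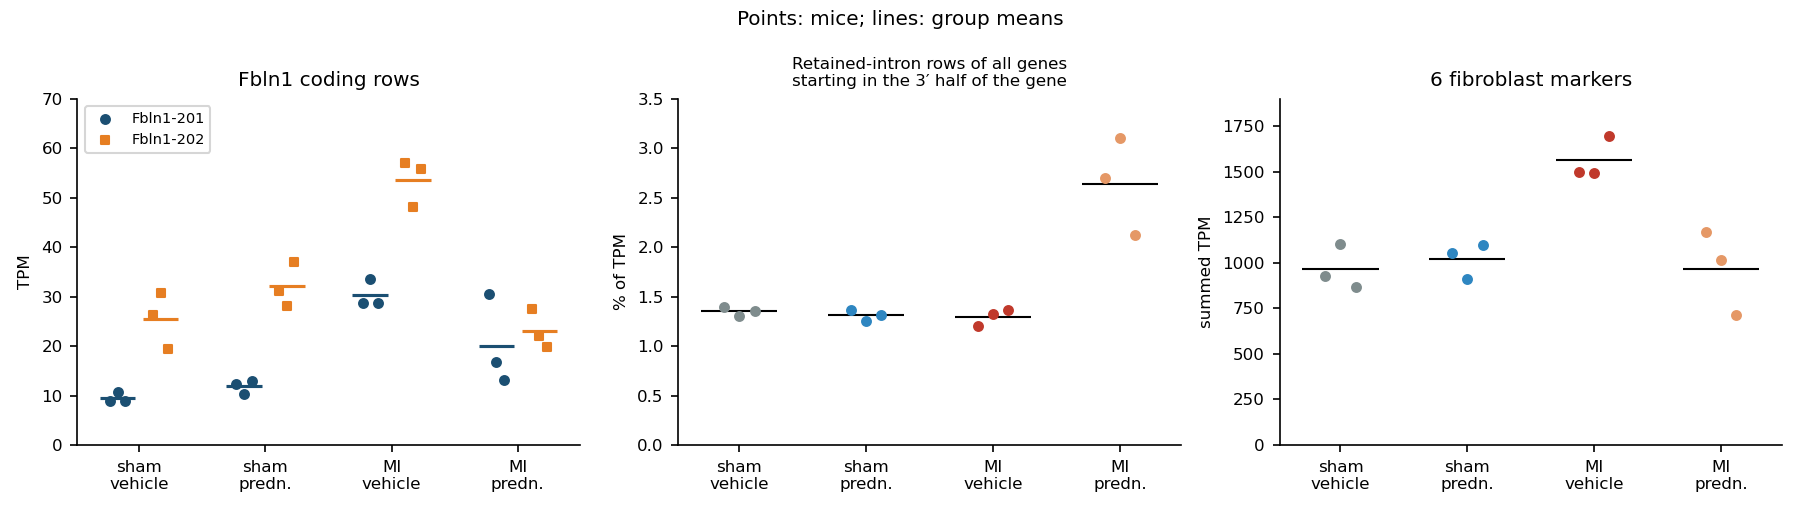
Left, TPM of the coding rows Fbln1-201 (circles) and Fbln1-202 (squares); centre, retained-intron rows of all genes that start beyond the midpoint of the gene, as % of TPM with mitochondrial, nuclear-copy and globin rows set aside; right, summed TPM of 6 fibroblast markers, with 1 point a mouse and lines at group means. Fbln1-202 lies above Fbln1-201 in all libraries but MI prednisone replicate 1, the centre panel sets the 3 MI prednisone libraries at 2.12% to 3.10% apart from the rest, and the fibroblast sum is highest in MI vehicle.

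In sham hearts no gene of the set was called for prednisone against vehicle (0 of 9, limma; 0.114% of all genes were called, and 1 of the 9 and 469 of all 13158 had an unadjusted p under 0.05). That 1 gene was *Eln*. It had 9.30, 10.4 and 7.93 TPM under vehicle and 14.3, 13.6 and 17.7 under prednisone, a 1.65-fold higher mean without overlap (log2 0.67 ± 0.23, limma adjusted p = 1). Values parted upward in this way in 15.6% of all genes. Its coding row showed the same order, 6.96, 8.21 and 6.03 against 9.04, 10.9 and 11.6 TPM. The other 8 genes had log2 differences between -0.08 and 0.33.

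Whether the prednisone effect differed between infarcted and sham hearts was tested as an interaction in the same limma model. It was called, in the lower direction, for *Fbln5* (-1.38 ± 0.27, limma adjusted p = 0.00997), *Fbln1* (-1.31 ± 0.28, 0.0123), *Fbn1* (-0.997 ± 0.26, 0.0234) and *Eln* (-1.05 ± 0.32, 0.0398), each with its limma adjusted p. That is 4 of 9, where 20.7% of all genes were called lower. *Mfap4* (-1.23), *Mfap2* (-0.94) and *Mfap5* (-0.86) missed the threshold with limma adjusted p between 0.0946 and 0.104, and *Fbln2* and *Emilin1* stood at -0.22 and -0.23. With coding rows only, 7 of 9 were called lower (30.5% of all genes), *Fbln2* at -1.93 and *Eln* at -1.997 among them. After median-ratio rescaling of the gene sums 1 call was left, *Fbln5* (-0.90, limma adjusted p = 0.0396), where 579 of 13131 genes were called lower. The part of all calls that was higher went from 2.54% to 49.4%. With the transcript-length correction no call of the set was left. Without sham vehicle replicate 1 or 3, or any 1 of the sham prednisone mice, 2 were called. The same coefficient is the difference between the MI effects under prednisone and under vehicle, so these results are not independent of those above.

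Other genes of elastic fibres and microfibrils, 28 listed by name with 24 tested, are given by their calls. Under vehicle, 15 of the 24 rose after MI (15.1% of all genes did) and none fell, and the largest rises were those of *Ltbp2* (log2 2.68), a latent TGF-beta binding protein of microfibrils, *Lox* (2.17), which cross-links elastin and collagen, *Fn1* (2.12), fibronectin, and *Adamtsl2* (1.99), which binds fibrillin. *Lox* had 1.41, 1.79 and 1.06 TPM in sham vehicle and 5.50, 18.4 and 8.99 in MI vehicle. In prednisone against vehicle after MI, 13 of the 24 fell (34.9% of all genes did), most of all *Fn1* (-1.74), *Lox* (-1.73), *Mmrn1* (-1.67) and *Loxl2* (-1.52), and 1 rose, *Adamts10* (0.53), named after its value was seen. *Lox* stood at 3.03, 2.46 and 1.48 TPM in MI prednisone, below every MI vehicle value. The interaction was called lower for 10 of the 24 (20.7% of all genes), the largest being *Lox* (-2.03), *Fn1* (-1.999), *Mmrn1* (-1.93) and *Loxl2* (-1.61), and sham hearts gave no call for prednisone.

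In MI against sham under prednisone 3 of those 24 rose, where 2.73% of all genes did, and 3 fell, a share near the 14.1% of all genes. *Adamtsl2* (2.19), *Ltbp2* (1.49) and *Adamts10* (1.18) rose, and *Adamtsl3* fell (-0.87), as did *Emilin2* and *Mmrn1*, named after their values were seen (-0.74 and -0.66). *Adamtsl2* had 3.28, 3.21 and 3.41 TPM in sham prednisone and 28.6, 19.9 and 11.2 in MI prednisone, values as high as in MI vehicle (9.26, 22.0 and 13.4). After median-ratio rescaling, chosen for these lists after the data were seen, 8 rose in MI under vehicle and 1 fell. Of 13131 genes tested after rescaling, 427 rose and 425 fell in that comparison. The prednisone calls after MI then numbered 6 in place of 14 and the interaction calls 3 in place of 10. Of all genes, 1888 were then called higher and 1813 lower for prednisone after MI, and 566 higher and 579 lower for the interaction.

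Of 12 elastin-degrading proteases 9 were tested. Under vehicle 6 of the 9 rose after MI, led by *Ctss* (1.59), *Mmp3* (1.46), *Ctsk* (1.37) and *Mmp14* (1.32), and 5 fell under prednisone after MI, led by *Ctss* (-1.52), *Ctsk* (-1.25), *Mmp14* (-1.21) and *Ctsl* (-0.84). Of all genes 15.1% rose and 34.9% fell in these comparisons. *Ctss*, a cysteine protease of macrophages, had 34.9, 56.8 and 99.9 TPM in MI vehicle and 24.9, 18.4 and 16.5 in MI prednisone. The only protease that rose in MI under prednisone was *Mmp12*, macrophage elastase (log2 1.25, limma adjusted p = 0.0444), at 0.608, 1.85 and 4.91 TPM, so mostly from replicate 3. Of 10 genes of the elastin receptor complex and of fibre-binding integrins, 4 rose after MI under vehicle (15.1% of all genes), with *Lgals3* (1.97) and *Itgb5* (0.93) the largest, and 5 fell under prednisone after MI (34.9% of all genes), with *Itga8* (-1.14) and *Itgb1* (-0.83) the largest. After median-ratio rescaling the receptor and integrin calls were 1 and 2, 1 of the latter higher. Of 13131 genes, 427 were then called higher in the first comparison, and 1888 higher and 1813 lower in the second. *Emilin3*, *Mmp7* and *Elane* were listed at 0 in every library of at least 1 group and were not tested.

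Markers of cell types that a piece of myocardium can hold were read beside these genes. Summed TPM of 6 fibroblast markers was 865.1 to 1101 in sham vehicle, 913.8 to 1100 in sham prednisone, 1493 to 1697 in MI vehicle and 711.6 to 1170 in MI prednisone. Under vehicle 5 of the 6 rose after MI (15.1% of all genes) and under prednisone after MI 4 fell (34.9% of all genes; *Dcn*, *Pdgfra*, *Lum*, *Tcf21*). Of 6 smooth muscle markers 2 rose after MI under vehicle and 2 fell under prednisone after MI. Among 5 pericyte markers 1 rose in the first comparison, and 1 rose and 1 fell in the second. Among 6 endothelial markers 4 rose in the first, and 1 rose and 2 fell in the second. All 6 macrophage markers rose in the first and 4 fell in the second. Of 6 mesothelial markers 3 rose in the first and 5 fell in the second. Of all genes 15.1% rose in the first, and 2.50% rose and 34.9% fell in the second. The shares of smooth muscle and endothelial markers that fell, 2 of 6 each, were near that of all genes. The pericyte share that rose in the first, 1 of 5, was also near that of all genes. The smooth muscle markers summed to 138.3 to 142.4, 135.5 to 143.8, 150.8 to 229.3 and 138.4 to 173.8 TPM in the same order of groups, the 6 macrophage markers to 125.8 to 158.3, 136.7 to 179.5, 236.3 to 361.4 and 129.8 to 251.5, and the 6 mesothelial markers to 30.04 to 70.4, 49.9 to 64.2, 86.9 to 170.1 and 25.0 to 81.2. Cartilage- and tendon-like matrix markers, chiefly *Comp* and *Cilp*, summed to 7.96 to 15.6 TPM in sham, 74.2 to 200.3 in MI vehicle and 22.6 to 74.2 in MI prednisone. The 5 adipocyte markers, none called, summed to 16.5 to 327.2 TPM in sham vehicle and 130.8 to 145.9 in sham prednisone. In MI vehicle they summed to 15.8 to 1417 TPM and in MI prednisone to 241.7 to 820.1. No defining marker of the fibroblast or smooth muscle lists was at 0 in any library. The part of these shifts in the results for the elastic fibre genes was not tested.

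The 9 tested genes were combined into 1 profile, the mean of their standardised log2 values. It was lowest in sham vehicle replicate 3 (-1.21) and highest in MI vehicle replicate 2 (1.58). MI prednisone replicates 1, 2 and 3 stood at 0.60, 0.17 and -0.47, the last within the sham range of -1.21 to -0.31. Among the 8108 other genes that averaged 5 TPM or more, *Serpinf1* (r = 0.985), *Bgn* (0.984), *Emp1* (0.983) and *Fcgr3* (0.983) were among the 5 most alike over the 12 libraries. Those most like *Eln* alone were *Ckb* (0.970), *Emcn* (0.965), *Trim47* (0.965), *Atf5* (0.960) and *Meox1* (0.959), so the lists shared no gene. Without MI vehicle replicate 3, *Ckb* alone of these 5 stayed among the 5 most like *Eln*. These correlations describe libraries that share 4 group means and a TPM scale, and *Serpinf1* and *Emp1* stayed among the 5 most alike without MI vehicle replicate 3.

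Promoters of 6 of the 10 genes (*Fbn1*, *Fbln1*, *Fbln2*, *Fbln5*, *Emilin1*, *Mfap2*) were found in the RefSeq table (GRCm38.p6), with 9 start sites in all, and were read over the 250 bases before each start. *Eln*, *Mfap4*, *Mfap5* and *Fbn2* had no entry. The letters searched on both strands were GGGCGG (GC box), in 5 of 9 windows and 32.7% of all 32851 windows, AGAACA (glucocorticoid receptor half-site), in 3 and 16.1%, CAGAC (SMAD half-element), in 5 and 42.2%, GTCTAGAC (SMAD element), in 0 and 0.167%, the TATA box, in 0 and 12.4%, and TGANTCA (AP-1 site), in 0 and 6.75%. Matches of different motifs were counted whether or not they overlapped. The *Fbln1* windows (chr15:85205699-85205948 and chr15:85205758-85206007) overlap, so the same SMAD half-element letters were counted in both. The 3 windows with AGAACA belong to *Mfap2*, *Emilin1* and *Fbln1*. The windows of the other 3 genes held none. A match is a run of letters and no measured binding. The windows of *Fbln5* (chr12:101819120-101819369, minus strand, 65.2% G and C) and *Fbln1* (chr15:85205699-85205948, plus strand, 46.4% G and C) are printed as those of 2 genes that rose after MI and fell under prednisone, with GC box and glucocorticoid half-site letters in capitals.
Fbln5 promoter: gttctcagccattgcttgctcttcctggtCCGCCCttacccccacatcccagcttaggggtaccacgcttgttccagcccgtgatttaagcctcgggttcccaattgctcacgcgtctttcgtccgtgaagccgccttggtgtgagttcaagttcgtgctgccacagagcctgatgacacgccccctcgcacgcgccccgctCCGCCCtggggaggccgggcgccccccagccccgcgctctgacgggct
Fbln1 promoter: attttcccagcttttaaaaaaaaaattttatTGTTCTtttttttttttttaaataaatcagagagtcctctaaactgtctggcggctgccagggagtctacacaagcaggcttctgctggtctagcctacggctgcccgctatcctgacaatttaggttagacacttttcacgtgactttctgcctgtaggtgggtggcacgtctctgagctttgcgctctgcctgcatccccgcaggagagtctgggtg
The *Fbln5* window holds 2 GC boxes, 221 and 48 bases before the start, and the *Fbln1* window 1 half-site, 219 bases before it. The GC box of *Fbln1* lies in its other window, 11 bases before that start, and that window holds no half-site. The printed *Fbln1* window ends just before Fbln1-201, the row not called under prednisone after MI. The other window ends by the start of Fbln1-202, the row that fell.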

How the data were processed

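The authors deposited TPM for 105129 transcript rows in 12 libraries. Per the submitters' processing notes, Trimmomatic, HISAT2, kallisto and mm10 were used, with no versions or roles. TPM keep no read depth, so no counting interval is given, and the precision rests on 3 mice a group. The p-values measure the spread between these mice.

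TPM were summed by gene symbol. Genes (or rows) that reached 1 TPM in 3 or more of the 12 libraries were fitted as log2(TPM + 1) with limma 3.58.1 (R 4.3.3), 1 mean a group and an intensity trend, and p-values were adjusted by Benjamini-Hochberg within each comparison, called under 0.05. Adding 1 TPM understates the change of low genes. A design with a count branch and a TPM branch had been written, and the TPM branch applied. *Fbn2* did not pass the filter.

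All 10 genes are named. Of each pathway list, fixed by gene name, values are given for at most 4 called genes a comparison with the largest changes. The members and lists were chosen with earlier results of these data known. Rows were typed from GENCODE M21, in which 94.7% of row IDs were found. Alternatives were another pseudocount (0.1), no filter, no trend, median-ratio rescaling, TPM without globin rows, mitochondrial rows and their nuclear copies, the most abundant transcript, a replicate block, a transcript-length correction, the compared groups alone, and each mouse left out. Coding-row sums, and the alternatives for the pathway lists, were added after the data were seen. The fit was tested on simulated data. One gene among those most like the members' profile is not reported here.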

Additional observations from a re-analysis of the deposited data

Results flagged for a closer look

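For 4 genes the effect of prednisone in infarcted hearts differed from its effect in sham hearts by the limma interaction test across all genes. Of all genes 20.7% were called lower in that test, and the median over all genes was -0.48. After median-ratio rescaling *Fbln5* alone stayed called, where 579 of 13131 genes were called lower. The difference of the log2 changes, MI minus sham, was -1.05 for *Eln*, -0.997 for *Fbn1*, -1.31 for *Fbln1* and -1.38 for *Fbln5*. In infarcted hearts the change of *Eln* was -0.39 and in sham hearts 0.67, so its 2 parts pointed in opposite directions, while neither was called alone.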

How the results depend on the processing

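Counts of called genes are out of 9. In MI against sham under vehicle (9 called), 4 were called after median-ratio rescaling, 4 with the length correction, 2 with that correction and a replicate block, 5 with centring alone, 0 with only the compared groups, and 5 to 9 with 1 mouse left out. No log2 change of a member in this comparison turned sign under any alternative, 0 of 171 values. In MI against sham under prednisone (4 called), 2 were called with no filter, 2 with no trend, 2 with the replicate block and 0 to 5 with 1 mouse left out. In prednisone against vehicle after MI (5 called), median-ratio rescaling, the length correction with or without the block, and centring each left 1, no filter left 3, the compared groups alone 2, leaving out 1 mouse 3 to 7, and coding rows alone gave 9. For the interaction (4 called), median-ratio rescaling and centring left 1, the length correction with or without the block left 0, coding rows gave 7, and leaving out 1 mouse 2 to 6. With the compared groups alone the interaction could not be fitted, since it needs all 4. The comparison in sham hearts gave 0 under every alternative run.

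The replicate block left 7 calls in MI against sham under vehicle, 4 in prednisone against vehicle after MI and 3 for the interaction. Replicate numbers mark different animals. Same-numbered mice deviated from their group means with a mean correlation of -0.37 (-0.58 to 0.0014) in MI against sham under vehicle and -0.25 (-0.43 to -0.06) in prednisone against vehicle after MI. It was -0.050 in MI against sham under prednisone and 0.0028 in prednisone against vehicle in sham hearts. With 3 mice a group these correlations cannot decide whether same-numbered mice share a batch.

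Some signs turned. For MI against sham under prednisone, *Fbln1* stood at 0.031 after median-ratio rescaling and 0.027 after centring. With the length correction, with or without the block, *Fbn1* stood at 0.43, *Fbln1* at 0.071, *Fbln5* at 0.27 and *Mfap2* at -0.11. The most abundant transcript and the coding rows gave *Eln* -0.39 and *Emilin1* -0.15, and coding rows *Fbln2* -0.75. Coding rows with median-ratio rescaling gave *Eln* -0.25, *Fbn1* 0.045, *Fbln1* 0.10, *Fbln2* -0.60 and *Emilin1* -0.0036. With 1 mouse left out *Fbln1* ran from -0.29 to 0.11, *Fbln5* from -0.28 to 0.023 and *Mfap2* from -0.075 to 0.32. In prednisone against vehicle after MI, *Eln*, *Fbln2* and *Emilin1* stood at 0.060, 0.15 and 0.31 after median-ratio rescaling, 0.17, 0.24 and 0.35 with the length correction (the same with the block) and 0.0017, 0.089 and 0.26 after centring. The most abundant transcript of *Fbln2*, the row Fbln2-206, gave 0.95, and *Emilin1* ran from -0.34 to 0.015 with 1 mouse left out. *Fbln2* in MI against sham under prednisone was called on both sides of 0. The cause of these turns was not tested, except that coding sums and single rows leave out the other rows by construction.

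Of the transcript rows (20 tested), 12 were called in MI against sham under vehicle, 7 with no filter, 6 with the replicate block, 1 after median-ratio rescaling and 1 to 16 with 1 mouse left out. In the other comparisons counts of called rows moved by less than 1.5 times in any of these, 5 to 8 under prednisone, 9 to 13 for the drug after MI and 7 to 10 for the interaction with 1 mouse left out. Read depth is unknown, so a level near 0, such as that of *Fbn2*, has no interval.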
